A study of Mus musculus with 4 samples.

Results

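The genes described here are 60 regulators of the cell division cycle, taken from a fixed list of symbols and found, all 60, in the RefSeq GRCm38.p6 table, whose autosomes, X and Y hold 21887 protein-coding genes. They comprise 8 cyclin genes, 9 genes of cyclin-dependent kinases, of the CDC25 phosphatases and of Wee1, 6 genes of kinase inhibitors, 11 E2F and retinoblastoma genes, 13 replication genes and 13 genes of mitosis and its regulators. Binding was mapped by chromatin immunoprecipitation and sequencing (ChIP-seq) in thymus of mice homozygous for p53 AD, a germline allele whose protein forms dimers, taken at 4 weeks of age. No mouse with wild-type p53 enters the comparisons, so each value describes the mutant thymus only. There were 2 p53 libraries and 1 PPAR-alpha library, for a nuclear receptor of fatty acid oxidation, and an input library from the same genotype, tissue and age that is not analysed here. The labels do not say that the p53 libraries came from separate mice or whether animals were pooled, so differences between them measure the spread of these 2 libraries, which may be technical.

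The cell cycle is driven by cyclins that activate partner kinases. D-type cyclins with Cdk4 and Cdk6 phosphorylate the retinoblastoma proteins, which releases E2F factors to switch on genes of DNA replication. Before replication, the origin recognition complex, Cdc6 and Cdt1 load the MCM helicase on DNA, a step called licensing. Thymocytes divide rapidly at the immature stages, and p53 is known to hold the cycle back chiefly through the inhibitor gene Cdkn1a, which is not among the 60.

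The measured feature was the summit, the base of highest pile-up in a called peak, with the authors' score per summit. In p53 replicate 1 there were 3608 summits, in p53 replicate 2 there were 4767 and in PPAR-alpha 4070, the order in which values for the 3 lists are given below where no list is named. The deposited lists give no read numbers, so the depth of each library is unknown. Scores fall on few steps (75, 76 and 116 distinct values) and are compared only within a list. Read length was 50 nt for p53 and 75 nt for PPAR-alpha, so antibody and read length cannot be told apart. Of 15 thymocyte genes, 12, 14 and 12 had a summit within 5 kb (80%, 93.3% and 80%). Over all protein-coding genes the shares were 12.9%, 16.4% and 12.3%. Among 20 genes of adipocytes, thymic epithelium, myeloid cells and B cells, 2 (10%) had one in each list. In any list, 2 of 5 myeloid and 2 of 5 adipocyte genes did (40% each, beside 24.7% of all genes). All 5 B cell genes and all 5 thymic epithelium genes had none within 5 kb in any list. These marker genes were chosen with earlier results of these data known, so they are no independent check of the tissue label.

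Sequences are shown for the 5 genes whose promoter window held a summit, since they let the position of each summit be read on the DNA. A window runs from 250 bases before an annotated start to 50 after it, and RefSeq gave one for 46 of the 60 genes. All are 300 bases long, GRCm38.p6, printed 5′ to 3′ on the gene's own strand with bases counted from 1. Capitals mark, on either strand, the letters CCAAT (bound by NF-Y), TTTGAA (the cell cycle homology region), any of TTTCCCGC, TTTCGCGC, TTTGCCGC and TTTGGCGC (E2F), and TGCGCATG (the core of the NRF1 sequence), the last chosen after the E2f6 window had been read. The Rbl1 window (chr2:157204485-157204784, minus strand) held summits of all 3 lists, and the E2f6 window (chr12:16810715-16811014, plus strand) held both p53 replicates. The windows of Aurka (chr2:172370521-172370820, minus strand) and Ccnd3 (chr17:47504801-47505100, plus strand) held p53 replicate 1, and that of Cdkn1b (chr6:134920151-134920450, plus strand) held p53 replicate 2.
Rbl1: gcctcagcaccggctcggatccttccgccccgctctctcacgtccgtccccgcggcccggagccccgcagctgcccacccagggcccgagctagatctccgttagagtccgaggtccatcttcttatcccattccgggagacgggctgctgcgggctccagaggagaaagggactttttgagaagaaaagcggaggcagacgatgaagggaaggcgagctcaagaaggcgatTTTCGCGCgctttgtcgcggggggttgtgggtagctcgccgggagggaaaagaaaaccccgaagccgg
E2f6: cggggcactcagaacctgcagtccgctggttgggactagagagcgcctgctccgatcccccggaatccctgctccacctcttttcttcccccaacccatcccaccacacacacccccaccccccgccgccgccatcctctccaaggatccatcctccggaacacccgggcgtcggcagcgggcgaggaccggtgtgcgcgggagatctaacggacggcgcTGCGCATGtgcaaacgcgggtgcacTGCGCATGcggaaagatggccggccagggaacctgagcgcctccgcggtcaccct
Aurka: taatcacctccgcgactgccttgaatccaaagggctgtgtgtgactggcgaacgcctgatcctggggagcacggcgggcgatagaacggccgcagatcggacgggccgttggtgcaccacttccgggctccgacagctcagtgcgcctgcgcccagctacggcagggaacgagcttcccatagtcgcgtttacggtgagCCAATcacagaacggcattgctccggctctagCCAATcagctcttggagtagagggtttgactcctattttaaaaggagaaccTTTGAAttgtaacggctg
Ccnd3: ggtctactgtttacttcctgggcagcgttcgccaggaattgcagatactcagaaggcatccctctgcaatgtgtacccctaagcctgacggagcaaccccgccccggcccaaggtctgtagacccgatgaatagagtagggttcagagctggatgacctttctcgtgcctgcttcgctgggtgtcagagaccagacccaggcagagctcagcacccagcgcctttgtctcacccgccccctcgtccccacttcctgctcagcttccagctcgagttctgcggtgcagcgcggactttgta
Cdkn1b: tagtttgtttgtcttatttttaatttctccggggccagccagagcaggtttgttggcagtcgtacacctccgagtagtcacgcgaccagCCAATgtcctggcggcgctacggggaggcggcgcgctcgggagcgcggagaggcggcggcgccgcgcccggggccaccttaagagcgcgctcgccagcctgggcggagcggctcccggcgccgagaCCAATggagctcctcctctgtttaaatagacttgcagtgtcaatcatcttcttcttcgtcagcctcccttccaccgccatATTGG

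In the Rbl1 window the p53 replicate 2 summit was base 232, next to TTTCGCGC at bases 233 to 240. The other summits there lay farther upstream, at base 34 for p53 replicate 1 and base 69 for PPAR-alpha. In the E2f6 window the p53 summits were bases 216 and 228, and TGCGCATG stood at bases 221 to 228 and 246 to 253. The Cdkn1b summit was base 87, before a CCAAT at bases 90 to 94. In the Aurka window the summit was base 6, far from the CCAAT letters at bases 200 to 204 and 232 to 236, and the Ccnd3 window held none of the strings around its summit at base 229.

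The 46 genes had 53 windows in all, since a gene can have several starts, and a string was counted once for a gene with it in any window. An E2F string was found in 15 (32.6%), where 3.29% of 17492 protein-coding genes with 21263 windows had one. CCAAT was found in 33 (71.7% against 42.3% of all genes), TTTGAA in 16 (34.8% against 18.5%) and TGCGCATG in 2, E2f6 and Mcm6 (4.35% against 2.94%). The p53 decamer consensus, searched without mismatch, was found in Bub1b and Cdkn2d (4.35% against 8.54%), and the direct repeat of AGGTCA with 1 base between, as PPAR prefers, in 0 (0.0572% of all genes). None of these strings overlaps another in the 5 windows shown. Of the 15 genes with an E2F string, 7 had a summit within 1 kb in any list, and of the 31 without one, 13 did. For CCAAT the counts were 13 of 33 genes with it and 7 of 13 without, and for TTTGAA 4 of 16 with it and 16 of 30 without. Matches are descriptions of letters, and differences between these counts were not tested.

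Within 5 kb of either end, 27 of the 60 genes (45%) had a summit in any list, beside 24.7% of all protein-coding genes, and by role the shares ran from 25% of cyclin genes to 72.7% of E2F and retinoblastoma genes. Within 1 kb it was 22 (36.7%, beside 19%). At 5 kb, p53 replicate 1 had a summit at 15 of 60 genes (25%, exact Clopper-Pearson 95% interval 14.7 to 37.9%), where the share over all protein-coding genes was 12.9%. For p53 replicate 2 it was 21 (35.0%, 23.1 to 48.4%) beside 16.4%, and for PPAR-alpha 14 (23.3%, 13.4 to 36.0%) beside 12.3%. Each share was above its background, and the lower bound for PPAR-alpha was close to it. Within 1 kb the counts were 13 (21.7%, 12.1 to 34.2%) beside 9.21%, 17 (28.3%, 17.5 to 41.4%) beside 11.9% and 9 (15%, 7.10 to 26.6%) beside 8.80% respectively. At that distance the interval for PPAR-alpha includes its background. The intervals treat the 60 genes as independent draws, which chosen genes are not, so they test no share against its background. PPAR-alpha and p53 replicate 1 differed by less than the p53 replicates did from each other at 5 kb.

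Both p53 replicates had a summit within 5 kb of 11 genes (18.3%, beside 7.96% of all genes) and within 1 kb of 9 (15%, beside 5.07%). All 3 lists did so for 7 genes at 5 kb (11.7%, beside 4.87%) and for 5 at 1 kb (8.33%, beside 2.80%). The exact intervals for all 3 lists, 4.82 to 22.6% at 5 kb and 2.76 to 18.4% at 1 kb, include these backgrounds near their lower bounds. Those for both p53 replicates, 9.52 to 30.4% at 5 kb and 7.10 to 26.6% at 1 kb, lie above theirs. The 7 were Ccnd3, Cdk2, Cdkn1b, Cdkn2d, Rbl1, E2f2 and Mcm2, and without p53 replicate 1 there were 12 (20%, beside 7.41%). With scores of 5 or more only, the 5 kb counts were 8, 7 and 8 in the 3 lists (13.3%, 11.7% and 13.3%). Over all genes the shares at such scores were 4.19%, 5.31% and 6.07%. Both p53 replicates then had 4 genes (6.67%, beside 1.97%) and all 3 lists 2 (3.33%, beside 1.16%). The intervals cover counting error only, no list was tested for enrichment, and whether gene activity in thymus accompanies these shares was not tested. None of the 60 lies on X or Y, where summits were rare. Over autosomal genes alone the 5 kb backgrounds were 13.7%, 17.3% and 13.0%.

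**Figure D1:**
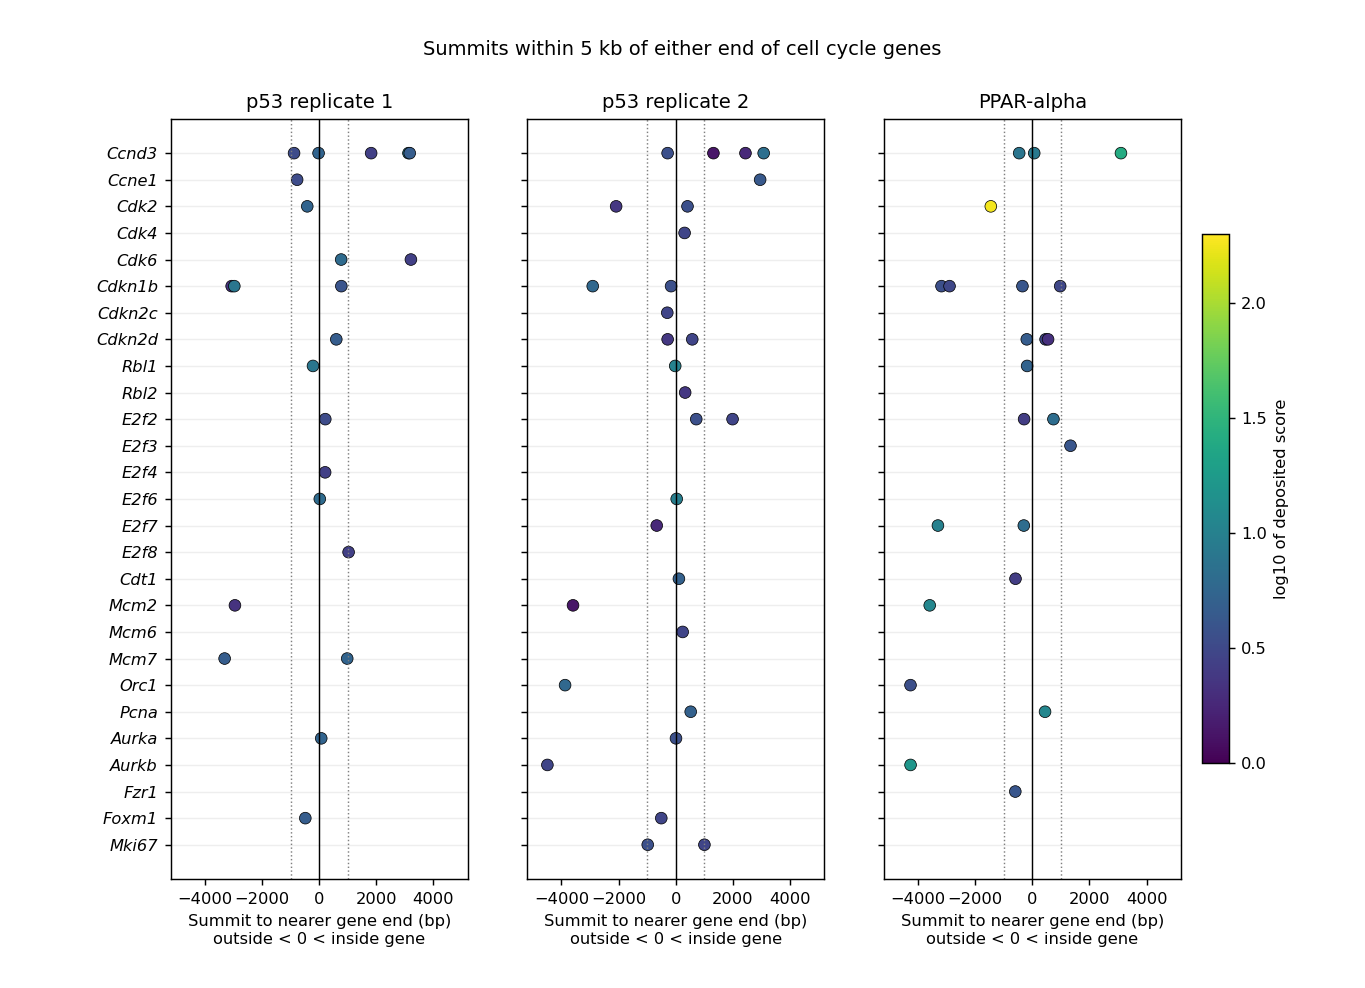
Each point is a summit within 5 kb of an end of 1 of the 27 cell cycle genes that had any, placed by its distance in bp to the nearer gene end (negative outside the gene, positive inside, dotted lines at 1 kb) and coloured by the log10 of the deposited score. Most points of the p53 lists lie within 1 kb of an end with scores under 10, and the PPAR-alpha summit counted for Cdk2 stands apart with 181.

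Of the 8 cyclin genes, 2 (25%) had a summit within 5 kb in any list, close to the 24.7% of all protein-coding genes. Ccnd3, on chromosome 17 from 47505051 to 47599689, encodes the D-type cyclin of early T cell precursors and carried more summits than any other of the 60. At its start lay summits of p53 replicate 1 at 47505029 (score 5.45), of p53 replicate 2 at 47504766 (3.62) and of PPAR-alpha at 47505117 (8.57). A second site inside the gene, about 3 kb from the start, was shared more closely. There p53 replicate 1 had a summit at 47508176 (9.72, rank 195 of 3608), p53 replicate 2 at 47508128 (6.72, rank 425 of 4767) and PPAR-alpha at 47508153 (25.2, rank 159 of 4070). These summits lay 23 to 48 bp apart, while those at the start lay 88 to 351 bp apart.

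More than 5 kb from its ends, Ccnd3 held a further 4, 8 and 5 summits. The highest reached 10.7 at 47534005 (p53 replicate 1), 5.08 at 47511696 and 47531568 (p53 replicate 2) and 32.0 at 47531711 (PPAR-alpha). PPAR-alpha lay 42 bp from the p53 replicate 1 summit at 47534005 and 143 bp from the p53 replicate 2 summit at 47531568, so the replicates met it at different bases. The p53 summits at the start and at the 3 kb site belong to dense runs, in which a summit has at least 3 others of its own list within 10 kb, but Ccnd3 stayed within 5 kb of a summit in all 3 lists without them. Further p53 summits lay inside the gene at 47506869 (2.74) and 47596520 (4.70) in replicate 1 and at 47506369 (1.34) and 47597249 (1.83) in replicate 2, the later one of each replicate nearer to Bysl. At the far end, summits of p53 replicate 1 at 47600569 (3.34) and PPAR-alpha at 47600149 (7.88) lay 420 bp apart, 880 and 460 bp beyond the gene, with the end of Bysl 1238 and 818 bp away.

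Ccne1, the E-type cyclin that acts with Cdk2 at the entry to S phase, lies on chromosome 7 from 38097984 to 38107490. It had a p53 replicate 1 summit at 38108262 (3.34), 772 bp outside the gene, and a p53 replicate 2 summit at 38104537 (4.33), 2953 bp inside it. The replicates therefore met at the gene and not at the same base, and PPAR-alpha had none there. Ccna2, Ccnb1, Ccnb2, Ccnd1, Ccnd2 and Ccne2, for cyclins of S phase, mitosis and G1, had no summit within 5 kb in any list. Their nearest summit of any list lay between 32654 bp (Ccne2) and 185263 bp (Ccnd2) away.

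Among the 9 kinase and phosphatase genes, 3 had a summit within 5 kb in any list (33.3%, beside 24.7% of all genes). They were Cdk2, Cdk4 and Cdk6. Cdk2, the partner of the E- and A-type cyclins, lies on chromosome 10 from 128697938 to 128705051. Around its annotated start p53 replicate 1 had a summit at 128705469 (5.45, 418 bp outside the gene) and p53 replicate 2 at 128704640 (3.62, 411 bp inside), 829 bp apart. PPAR-alpha was counted for Cdk2 through a summit at 128696485 (181, rank 28 of 4070), 1453 bp beyond the other end of the gene. That summit lay nearer to Rab5b (201 bp) and had Pmel within 5 kb as well, so the highest score counted for any of the 60 belongs to a site with nearer neighbours. A p53 replicate 2 summit at 128695851 (2.37) lay 634 bp from it and 37 bp from Pmel.

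Cdk6, whose kinase acts with D-type cyclins, had p53 replicate 1 summits at 3341773 (6.24) and 3344214 (2.74) on chromosome 5 and none in the other lists. Cdk4, its close relative, had a p53 replicate 2 summit on chromosome 10 at 127063844 (2.97), 309 bp inside the gene, and none in the other lists. No list had a summit within 5 kb of Cdk1, the mitotic kinase, of Cdk7, which activates other kinases, of Cdc25a, Cdc25b or Cdc25c, which remove inhibitory phosphates, or of Wee1, which adds them. Cdc25b came closest, with its nearest PPAR-alpha summit 6063 bp and its nearest p53 replicate 1 summit 6092 bp away, the first distances beyond the 5 kb window in those lists. Cdk1 was the farthest of all 60 from any summit, at 743658 bp.

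**Figure D2:**
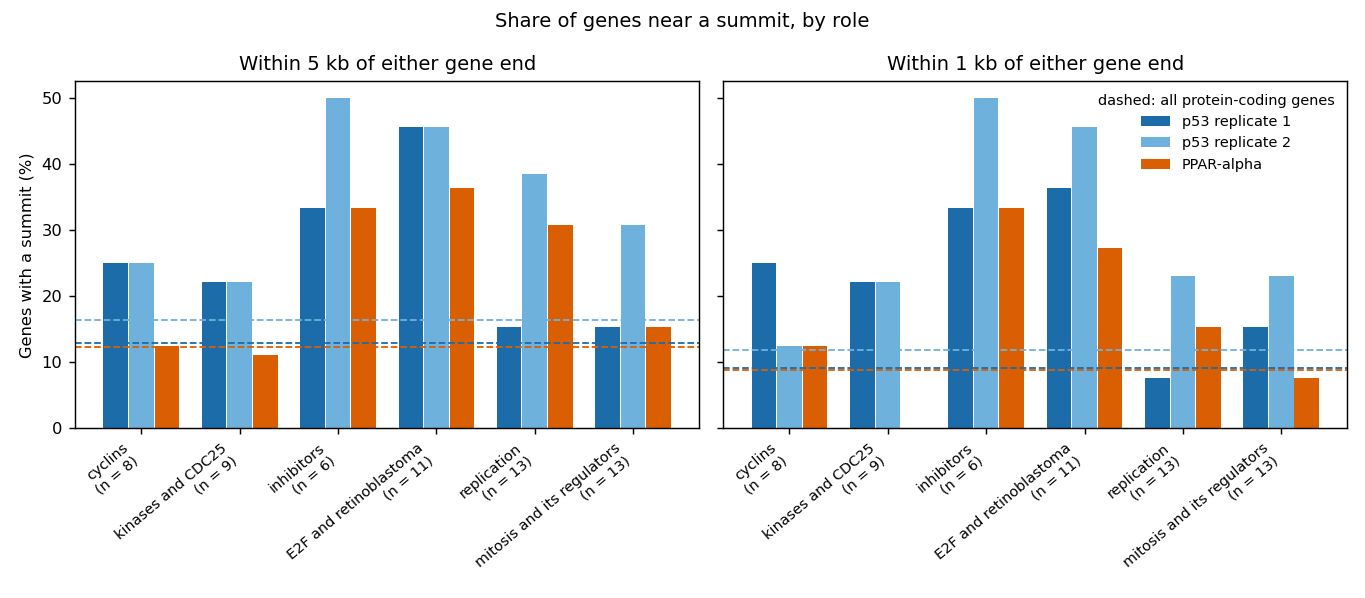
Bars give the percentage of genes in each role with a summit within 5 kb (left) and 1 kb (right) of either gene end in each list, and dashed lines the percentage of all protein-coding genes. E2F and retinoblastoma genes reach 45.5% in both p53 lists at 5 kb, beside 12.9% and 16.4% of all genes. Kinase and CDC25 genes have 0 of 9 for PPAR-alpha at 1 kb, where the share of all genes is 8.80%.

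Of the 6 inhibitor genes, 3 had a summit within 5 kb in any list (50%, beside 24.7% of all genes). Cdkn1b and Cdkn2d had summits in all 3 lists (33.3%, beside 4.87%), Cdkn2c in 1 and the others in none. Cdkn1b encodes p27, which blocks cyclin-Cdk2 complexes, and lies on chromosome 6 from 134920401 to 134925525. Beyond its far end p53 replicate 1 had a summit at 134928496 (7.93, rank 298 of 3608), p53 replicate 2 at 134928431 (5.88, rank 595 of 4767) and PPAR-alpha at 134928423 (3.06, rank 3133 of 4070). These lay 2971, 2906 and 2898 bp outside the gene, at most 73 bp from one another, and no other protein-coding gene had an end within 5 kb of any of them. Around the start the summits were more scattered, with p53 replicate 1 at 134921176 (3.99), p53 replicate 2 at 134920237 (3.62) and PPAR-alpha at 134920055 (4.13) and 134921376 (3.06). The p53 replicates lay 939 bp apart there, and each had a PPAR-alpha summit at 200 and 182 bp. Upstream, p53 replicate 1 at 134917337 (2.18) and PPAR-alpha at 134917222 (3.58) were 115 bp apart.

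Cdkn2d, the p19 inhibitor of Cdk4 and Cdk6, lies on chromosome 9 from 21288459 to 21291421. Summits of p53 replicate 1 at 21290823 (4.70), p53 replicate 2 at 21290844 (2.97) and PPAR-alpha at 21290870 (2.11) stood inside the gene within 47 bp of each other. Their scores stood at rank 1038 of 3608, rank 2441 of 4767 and rank 3836 of 4070. At the far end, p53 replicate 2 at 21288175 (2.37) and PPAR-alpha at 21288265 (4.70) lay 90 bp apart between Cdkn2d and its neighbour Kri1, and PPAR-alpha had another at 21288923 (3.06). Cdkn2c, the p18 inhibitor, had only a p53 replicate 2 summit at 109667053 on chromosome 4 (2.97). Cdkn1c, Cdkn2a and Cdkn2b, for p57, for p16 with p19Arf, and for p15, had none within 5 kb, and their nearest lay 87728 to 168515 bp away.

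**Figure D3:**
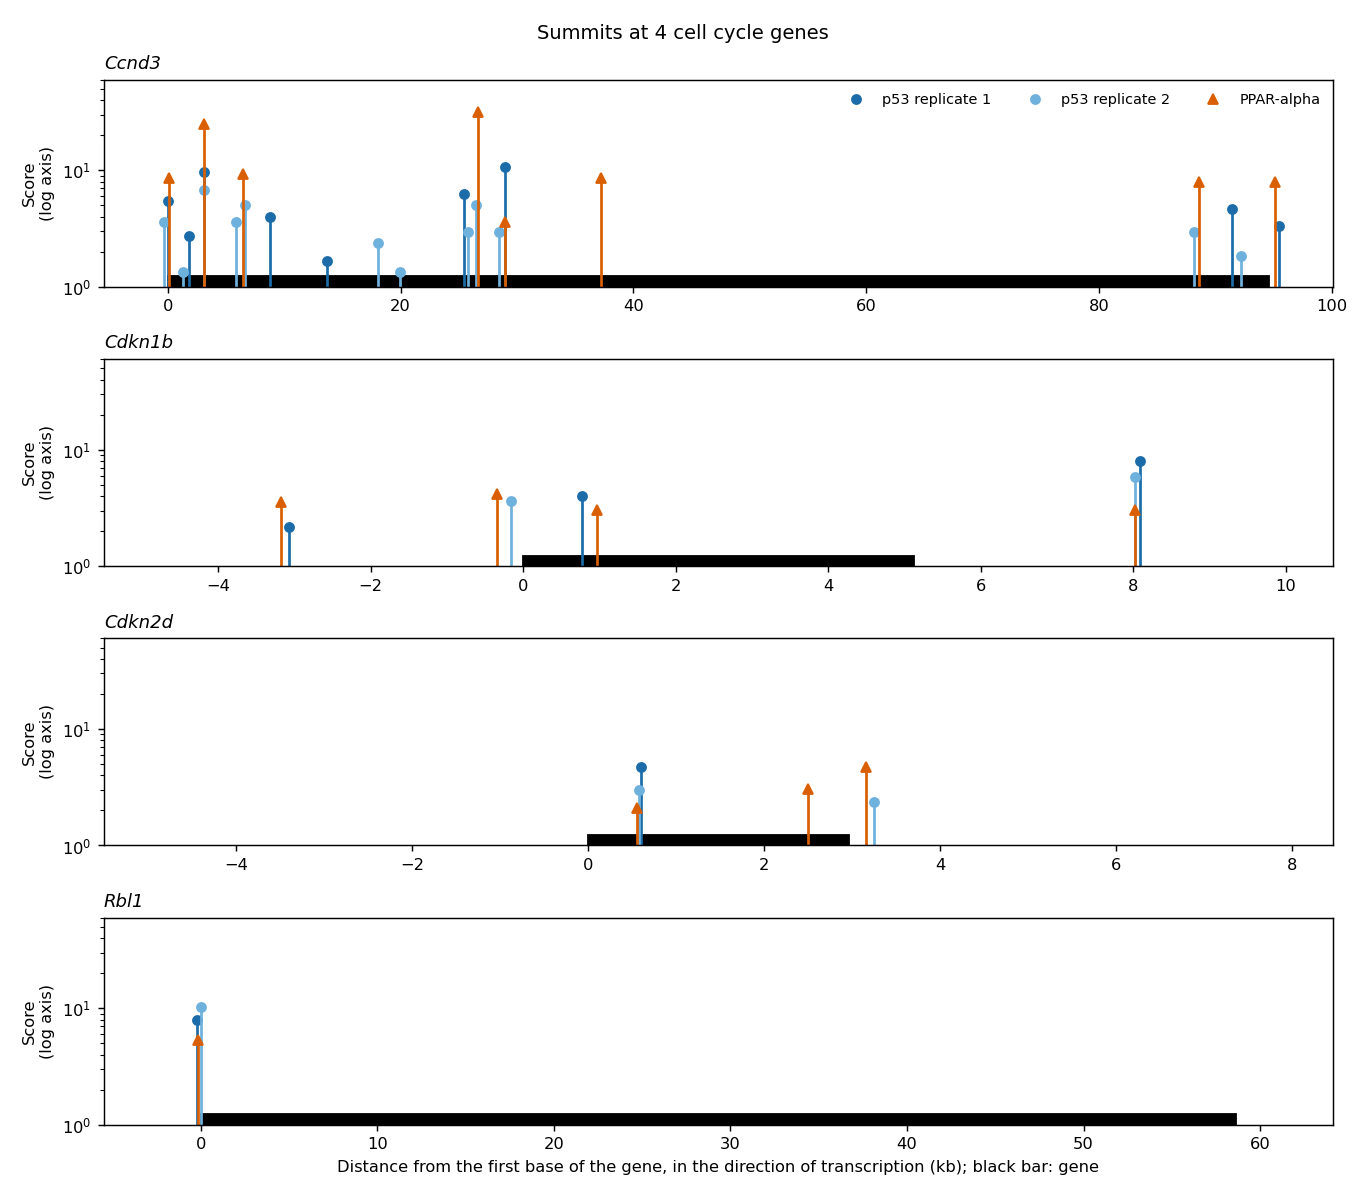
Summits at the 4 genes where the lists came within 500 bp of one another (Ccnd3, Cdkn1b, Cdkn2d and Rbl1), by distance in kb from the first base of the gene in the direction of transcription (x axis) and deposited score (y axis, log). All 3 lists meet within 100 bp about 3 kb into Ccnd3, beyond the end of Cdkn1b and inside Cdkn2d. Just before Rbl1 they lie 35 to 198 bp apart, and no other summit was seen within that gene.

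Of the 11 E2F and retinoblastoma genes, 8 had a summit in any list (72.7%, beside 24.7% of all genes). Within 5 kb there were 5 of 11 (45.5%) in each p53 replicate and 4 (36.4%) in PPAR-alpha. Rbl1 encodes p107, a retinoblastoma relative that represses E2F targets with E2f4 and E2f5, and lies on chromosome 2 from 157145893 to 157204534. Its summits were 157204751 in p53 replicate 1 (7.93, rank 298), 157204553 in replicate 2 (10.3, rank 171) and 157204716 in PPAR-alpha (5.30, rank 1694), all in the window printed above. The 10.3 was the only p53 score of 10 or more within 5 kb of an end of the 60 genes. PPAR-alpha lay 35 bp from p53 replicate 1, and the p53 replicates lay 198 bp apart.

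E2f6, a repressive E2F, lies on chromosome 12 from 16810909 to 16826752 and had the closest p53 pair of the 60. Its summits were at 16810930 for replicate 1 (6.24, rank 519) and 16810942 for replicate 2 (9.40, rank 206), 12 bp apart, with no PPAR-alpha summit within 5 kb. E2f2, an activating E2F, lies on chromosome 4 from 136172274 to 136196057 and had summits in all 3 lists within 1 kb of its start. They were 136172487 in p53 replicate 1 (3.34), 136172991 in replicate 2 (3.62) and 136173013 in PPAR-alpha (6.55). The last pair lay 22 bp apart, and p53 replicate 1 lay 504 and 526 bp from them. Another p53 replicate 2 summit stood at 136174262 (2.97) and another PPAR-alpha summit at 136171986 (2.57). Deeper in E2f2 each list had a further summit, with 5.45, 2.37 and 10.7 at 136178652, 136178252 and 136177593.

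E2f7, an atypical E2F that represses the cycle, had PPAR-alpha summits on chromosome 10 at 110742135 (9.995) and 110745141 (6.55) and a p53 replicate 2 summit at 110744773 (1.83), 368 bp from the nearer. Single summits of 1 list stood near Rbl2, for p130 (p53 replicate 2, 2.37), E2f4 (p53 replicate 1, 2.74), E2f8 (p53 replicate 1, 2.74) and E2f3 (PPAR-alpha, 4.13). E2f8 lay just beyond the 1 kb window of p53 replicate 1, at 1029 bp, and Mcm7 just within it, at 981 bp. E2f1, E2f5 and Rb1 had none within 5 kb. Rb1, which encodes the retinoblastoma protein, is 133094 bp long and held summits deep inside the gene, at 73239516 for p53 replicate 1 (6.24), 73238154 and 73240587 for p53 replicate 2 (4.33 and 2.97) and 73238409 for PPAR-alpha (4.13) on chromosome 14. The last lay 255 bp from the first of p53 replicate 2, and the replicates did not meet within 500 bp.

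Replication genes had 2 of 13 (15.4%) near summits in p53 replicate 1, 5 (38.5%) in p53 replicate 2 and 4 (30.8%) in PPAR-alpha. Over all genes these 5 kb shares were 12.9%, 16.4% and 12.3%. The p53 replicates shared Mcm2 alone (7.69%, beside 7.96% of all genes). Pcna encodes the sliding clamp of the DNA polymerases and lies on chromosome 2 from 132249286 to 132253180. Its summits were at 132252657 for p53 replicate 2 (5.08, rank 863) and 132252735 for PPAR-alpha (11.5, rank 504), 78 bp apart and within the gene, with none in p53 replicate 1. Cdt1, which loads the MCM helicase, had a p53 replicate 2 summit at 122568125 (5.08) and a PPAR-alpha summit at 122567426 (2.57) on chromosome 8, 699 bp apart. Both genes thus rested on 1 p53 replicate.

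At Mcm2, Mcm7 and Orc1 the summits lay nearer to an end of a neighbour than to either outer end of the gene itself. Mcm2 and Mcm7 encode helicase subunits and Orc1 the large subunit of the origin recognition complex. At Mcm2, p53 replicate 1 at 88901729 (2.18), p53 replicate 2 at 88902376 (1.34) and PPAR-alpha at 88902371 (11.5) lay 2949, 3596 and 3591 bp from the gene on chromosome 6, but 522, 125 and 120 bp from an end of Tpra1, the last pair 5 bp apart. The summits counted for Orc1 on chromosome 4, of p53 replicate 2 at 108619904 (5.88) and PPAR-alpha at 108620294 (3.58), were 36 and 354 bp from Cc2d1b. Mcm7 had p53 replicate 1 summits at 138171130 (5.45, with Ap4m1 at 891 bp) and 138161273 (4.70, with Cops6 at 171 bp) on chromosome 5. The summit at 138171130 lay 981 bp inside the outer end of Mcm7 but only 136 bp past an annotated Mcm7 start. Mcm6 had a p53 replicate 2 summit at 128359463 on chromosome 1 (2.97), 242 bp inside the gene. Cdc6, Gmnn (the inhibitor of Cdt1), Mcm3, Mcm4, Mcm5, Mcm10 and Cdc45 had none, with the nearest 14323 bp from Cdc6 and 665501 bp from Mcm4.

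Of the 13 mitotic genes, 5 had a summit within 5 kb in any list (38.5%, beside 24.7% of all genes). The p53 replicates agreed at Aurka and Foxm1 (15.4%, beside 7.96%), where PPAR-alpha had no summit within 5 kb. Aurka, the centrosome kinase, had summits at 172370815 in p53 replicate 1 (5.45) and 172370878 in p53 replicate 2 (3.62) on chromosome 2, 63 bp apart. They lay 71 and 8 bp inside the upstream end of Aurka and 170 and 233 bp from Cstf1. Foxm1, a transcription factor of mitotic genes, had them at 128362508 (4.70) and 128362487 (2.97) on chromosome 6, 21 bp apart and between Foxm1 (486 and 507 bp) and Rhno1 (403 and 424 bp). Such sites between close neighbours cannot be assigned to 1 of the genes from these lists.

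Aurkb, the chromosome passenger kinase, was counted through summits over 4 kb away, at 69041131 in p53 replicate 2 (2.97) and 69041362 in PPAR-alpha (16.3, rank 299 of 4070), on chromosome 11. Mki67, the proliferation marker, had summits in p53 replicate 2 alone, at 135715447 (2.97) and 135717431 (3.62) on chromosome 7. Fzr1, an activator of the anaphase-promoting complex, had a PPAR-alpha summit at 81366283 (4.13) on chromosome 10, 58 bp from Mfsd12. Plk1, Bub1, Bub1b, Mad2l1, Cdc20, Mybl2, Skp2 and Top2a, which hold the mitotic kinase, the spindle checkpoint, its target Cdc20, a transcription factor, a ubiquitin ligase subunit and a topoisomerase, had none. Their nearest summits of any list lay 7677 bp (Bub1) to 417108 bp (Skp2) away.

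By median distance the 60 genes lay nearer to summits than protein-coding genes in general, in each list. The median distance from a gene end to the nearest summit was 72676 bp in p53 replicate 1, where it was 164675 bp over all protein-coding genes and 144169 bp over autosomal ones. In p53 replicate 2 it was 34895 bp, beside 114549 and 98614 bp, and in PPAR-alpha 50718 bp, beside 158888 and 139517 bp. By role the medians in p53 replicate 1 ran from 33126 bp for E2F and retinoblastoma genes to 460458 bp for inhibitors. The inhibitor median was thus larger than the 164675 bp of all genes. Cdkn1c, Cdkn2a, Cdkn2b and Cdkn2c lay 368646 to 826646 bp from a summit of that list. The 33 genes without a summit within 5 kb in any list had their nearest one at 6063 to 743658 bp (median 73405 bp).

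**Figure D4:**
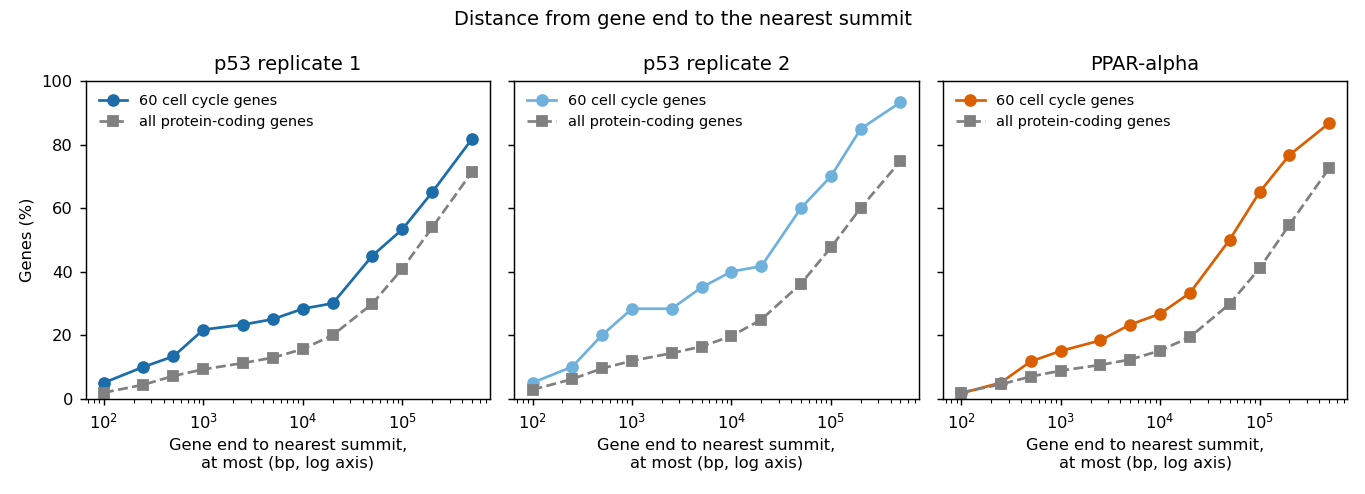
Lines give the percentage of genes (y axis) whose nearer end lies at most a given distance in bp (x axis, log) from the nearest summit, for the 60 cell cycle genes (solid) and all protein-coding genes (dashed), in each list. The cell cycle line runs above the dashed one at every distance drawn in both p53 lists, and in PPAR-alpha from 250 bp upward, while at 100 bp it lies at 1.67% beside 1.90%.

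Summits gathered at gene starts. Of the 46 genes with an annotated start in the promoter table, 12, 16 and 9 had a summit within 1 kb of a start (26.1%, 34.8% and 19.6%). Over all 17492 such genes the shares were 9.68%, 12.4% and 9.08%. Only summits within 5 kb of an outer gene end entered these counts, so those at inner starts farther from both ends were missed. Within 1 kb of the opposite gene end there were 1, 1 and 3 (2.17%, 2.17% and 6.52%, beside 0.669%, 0.846% and 0.875%). The far-end genes were Ccnd3, Cdkn2d and Fzr1.

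Scores at the 60 genes were low and close to those near other genes. The 23 summits of p53 replicate 1 had a median of 4.70 (2.18 to 9.72), where the 2422 summits near any protein-coding gene had 3.99. The 29 of p53 replicate 2 had a median of 2.97 (1.34 to 10.3) beside 3.62, and the 23 of PPAR-alpha 4.70 (2.11 to 181) beside 4.70. The p53 replicates thus lay on opposite sides of their backgrounds. Scores of 10 or more were reached by 0, 1 and 5 of these summits (0%, 3.45% and 21.7%, beside 4.38%, 3.81% and 13.6%). The 5 of PPAR-alpha were those at Ccnd3, Cdk2, Mcm2, Pcna and Aurkb, of which those counted for Cdk2 and Mcm2 had another gene nearer. In all, 5, 6 and 4 of the summits had another protein-coding gene nearer, by distance to outer gene ends.

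The lists shared genes more often than bases. Of the 15 genes of p53 replicate 1, 11 (73.3%) were also near a summit of p53 replicate 2, which is 52.4% of the 21 there, and over all genes these shares were 61.5% and 48.6%. With PPAR-alpha, p53 replicate 1 shared 7 genes (46.7% of its own and 50.0% of the 14, beside 49.6% and 52.2%). With p53 replicate 2, PPAR-alpha shared 12 genes (57.1% of the 21 and 85.7% of the 14, beside 45.2% and 60.2%), among them E2f7, Cdt1, Orc1, Pcna and Aurkb, which p53 replicate 1 lacked. No gene was near PPAR-alpha and p53 replicate 1 without p53 replicate 2, a pattern that 1.55% of all genes had. Within 100 bp the p53 replicates met at 6 genes, Ccnd3, Cdkn1b, Cdkn2d, E2f6, Aurka and Foxm1 (10%, beside 3.26% of all genes). All 3 lists met within 100 bp at Ccnd3, Cdkn1b and Cdkn2d (5%, beside 1.04%), and within 500 bp also at Rbl1 (6.67%, beside 3.23%). PPAR-alpha had no second library, so its own spread is not known.

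Of 104 other cell cycle genes outside the 60, in replication, cyclin and DREAM complexes, mitosis and ubiquitin ligases, 30 (28.8%), 34 (32.7%) and 20 (19.2%) had a summit within 5 kb, beside 12.9%, 16.4% and 12.3% of all genes. Both p53 replicates had one near 15 (14.4%, beside 7.96%). All 3 lists had one near 6 (5.77%, beside 4.87%), a share close to the background and below the 11.7% of the 60 genes, a difference that was not tested. The interval for the 11.7%, 4.82 to 22.6%, includes both the 4.87% and the 5.77%. The 6 were Birc5, Cdc26, Cks2, Ndc80, Skp1 and Smc4. By group, further replication genes had 8, 11 and 5 of 41 near a summit (19.5%, 26.8% and 12.2%), and none of them had one in all 3 lists. Cyclin and DREAM complex genes had 4, 4 and 3 of 16, genes of mitosis and the anaphase-promoting complex 16, 14 and 9 of 38, and ubiquitin ligase genes 2, 5 and 3 of 9. The highest scores in p53 replicate 1 were at Smc4 and Anapc7 (7.93 each), for a condensin and an anaphase-promoting complex subunit, and at Pola2 (7.07), for a DNA polymerase alpha subunit. In p53 replicate 2 they were at Cdc7, the kinase that fires origins, and Pola2 (11.3 each) and at Skp1 (10.3), and the Pola2 summits of the replicates were at 5964183 and 5964189 on chromosome 19. In PPAR-alpha they were at Smc2 (9.27), Anapc5 (7.20) and Cks1b (136), the last nearer to Flad1.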

How the data were processed

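Summits were taken as the authors deposited them, 1 list per ChIP library, each with a score that was read as a −log10 p- or q-value from the form and range of the lists, since no label states it. Per the submitters' processing notes the tools were MACS2 2.1.2, Bowtie2 2.3.4.2 and Picard 2.9.0, with no role stated. How peaks were called, at which threshold, from how many reads and against which control is not given in the sources used here. Those notes name GRCh38 for mouse tissue, so positions were checked against RefSeq GRCm38.p6. There, 49.2%, 49.0% and 42.0% of the summits in the 3 lists were at most 1 kb from an end of a protein-coding gene, and 6.38% to 7.82% after all were moved by 50 kb either way.

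Distances run from a summit (counted from 1) to the nearer annotated gene end, within 5 kb or 1 kb. Every gene with an end in the window was counted. Background shares cover all protein-coding genes, and no set test was run. The search was tested on planted positions. Members and lists were chosen with earlier results of these data known. Of 105 other cell cycle names, 1 was not matched. Positions and scores were given for genes with summits within 1 kb in 2 or more lists, within 5 kb in both p53 replicates, or with the highest score of a role in a list. The remaining genes with a summit are given more briefly. Promoter strings and sequences came from RefSeq promoter windows. Python 3.11.15, pandas 2.3.3, numpy 2.4.6 and scipy 1.17.1 were used.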

Additional observations from a re-analysis of the deposited data

How the results depend on the processing

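The main counts were 15, 21 and 14 of 60 genes for the 3 lists, 11 for both p53 replicates and 7 for all 3 lists. Over 53 recomputed counts, 35 stayed within 1.5 times the main count and 18 did not, and the share of the 60 genes was above that of all genes in 50. The other 3 were the counts of 0 at scores of 10 or more, for p53 replicate 1, both replicates and all 3 lists. Over all genes those shares were 0.726%, 0.329% and 0.219%. At such scores p53 replicate 2 had 1 gene (1.67%, beside 0.8%) and PPAR-alpha 5 (8.33%, beside 2.03%). At scores of 5 or more the counts were 8, 7 and 8, with 4 for both replicates and 2 for all 3 lists. The matching shares of all genes were 4.19%, 5.31%, 6.07%, 1.97% and 1.16%. Within 1 kb PPAR-alpha had 9 (15%, beside 8.8%), and within 20 kb all 3 lists met at 11 genes (18.3%, beside 9.3%). With summits within 100 bp of each other, both replicates had 6 (10%, beside 3.26%) and all 3 lists 3 (5%, beside 1.04%). Within 500 bp they had 7 (11.7%, beside 6.33%) and 4 (6.67%, beside 3.23%). Leaving out 1 p53 replicate gave 15 (25%, beside 12.9%) to 21 (35%, beside 16.4%) in place of both replicates. In place of all 3 lists it gave 7 (11.7%, beside 6.42%) to 12 (20%, beside 7.41%). The higher values in each case came without replicate 1. Other alternatives (no dense runs, annotated starts, gene bodies, nearest gene) stayed within 1.5 times, as did the 3608 highest-scoring summits of each list, which were chosen after seeing the data. No paired analysis was possible because PPAR-alpha has 1 library. Depth is unknown, so an absent summit does not show absent binding. The cause of these changes was not tested beyond the construction of each alternative.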
